A study of Mus musculus with 2 samples.

Results

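The lncRNA lnc015192 is named in the title of the series, and its probe on the array is NONMMUT015192. It is described here together with the NONCODE transcripts that stand next to it in number. NONCODE is a catalogue of long non-coding RNAs, and NONMMUT is its prefix for mouse transcripts. The members are all non-control probes with a name from NONMMUT015100 to NONMMUT015250. Of these 151 numbers 48 had a probe, out of 28773 NONCODE probes and 97836 probes of any kind on the array. The range was selected on the knockout minus control differences of these same arrays, so every difference below is a description and carries no test. The series holds 2 arrays, each with RNA from the mammary gland of a female mouse. The control carried miR-34a alleles flanked by loxP sites (miR-34a fl/fl). The knockout (miR-34a -/-) came from a cross of such mice with mice that express Cre recombinase in the mammary gland, so miR-34a was deleted in cells that expressed Cre. The promoter of the Cre transgene, the age of the mice and the number of mice per RNA sample are not given in the sources used here. No genotype has a replicate, so no difference has a spread between animals, and each value describes these 2 RNA samples.

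MicroRNAs bind target RNAs mainly through their seed, bases 2 to 8 from the 5′ end, and lower the stability or translation of the target. miR-34a is induced by the tumour suppressor p53 and restrains cell cycle and survival genes. A long non-coding RNA that carries sites for a microRNA can in principle compete with mRNAs for it, and such an RNA is called a competing endogenous RNA. The series title places lnc015192 and the metalloprotease Adam12 in that scheme with miR-34a. The mature sequences of the deleted gene are shown because they define which sites such a competition would need, with the seed in capitals (RefSeq, build GRCm38.p6, plus strand).
mmu-miR-34a-5p at chr4:150068473-150068494: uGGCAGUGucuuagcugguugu
mmu-miR-34a-3p at chr4:150068517-150068537: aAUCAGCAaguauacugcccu
The NONCODE probes carried a number as their only identity, without a sequence, a position or a gene name. Seed sites in lnc015192 and the genomic neighbours of the members were therefore not analysed here, and no function of the other members is given.

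Of the 175906 non-control spots per array, 77.3% were well above background in the control and 75.4% in the knockout, and no spot was saturated. Precision is limited by the number of arrays. No probe matched Mir34a or Adam12 by accession, so neither gene could be checked. Of 45 marker genes of mammary epithelium, fat, stroma, blood, muscle and skin, 1 had a probe by accession, a non-coding variant of the oestrogen receptor gene Esr1 that was not well above background on either array. The labelled tissue could thus not be checked against its markers. In whole tissue, more or fewer cells of a type and more or less RNA per cell cannot be told apart.

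lnc015192 was seen in the knockout gland only. Its 2 spots gave processed signals, the background-subtracted intensities of the scanner software, of 58.5 and 53.8 on the knockout array. The software put the larger error of these signals at 6.50. On the control array the same spots gave 3.18 and 2.93, with errors of 3.20 and 2.95. Neither control spot was well above background. The software had replaced both signals by values close to their errors, so the match of signal and error is not a measurement. Before the software replaced low values, the background-subtracted signals of the control spots were 0.40 and -1.66, against 57.4 and 56.2 in the knockout. The 600 negative control spots had a median processed signal of 3.03 (control) and 2.74 (knockout). The control spots of lnc015192 were close to the negative controls, but as replaced values they add nothing to the background call. Its knockout spots were far above the negative controls.

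Because the control level of lnc015192 is not a measurement, its difference is given as a lower bound. Levels here are log2 processed signals after each array's 75th percentile was subtracted, and differences are knockout minus control. The knockout level of lnc015192 was -2.11, and the lowest level of any probe well above background on the control array was -4.52. The bound for lnc015192 was therefore 2.42 (log2), at least 5.33-fold higher in the knockout. It was 1.31 with normexp background correction and 1.68 when the 5th percentile of detected probes set the bound instead of the lowest. As read, without a bound, its difference was 4.65 in each of the 2 spots. The knockout level of lnc015192 stood at percentile 34.6 of the NONCODE probes well above background there, a rank of probe signals and not of RNA amounts.

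Of the 48 members, 28 were well above background on both arrays, 8 on the knockout array only and 1, against 3.47% of usable NONCODE probes, on the control array only. A further 7 were not well above background on either array, and 3 had spots that disagreed in this call on the control array. The remaining member, NONMMUT015231, had outlier marks on both knockout spots. This left 37 usable members, with both spots of each in use. At least 2-fold higher in the knockout were 14 of the 37, where 4.59% of the 20554 usable NONCODE probes were past that limit. At least 2-fold lower were 3 of the 37, against 3.53% of NONCODE probes. The 8 members seen on the knockout array only compare with 1.95% of usable NONCODE probes. Nothing is read from these shares, since the range was picked with them in view. The median difference was 0.32 over the 37 and 0.15 over the 28 measured on both arrays, while the usable NONCODE probes had a median of 0.10.

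The higher members were not spread over the range. In order of number, the median of 7 consecutive usable probes was at least 1, that is 2-fold, for every window centred from NONMMUT015170 to NONMMUT015202. This stretch held 14 usable probes and 2 unusable ones. All 14 were above 0, and 13 of them were at least 2-fold higher in the knockout. Outside the stretch 1 of 23 usable members was at least 2-fold higher, where 4.59% of usable NONCODE probes were. The median difference was 1.68 in the stretch, or 3.21-fold, with probes seen on the knockout array only set at their bounds. It was 0.00 over the 23 members outside. The stretch was drawn on these same differences, so the contrast between inside and outside follows in large part from its definition.

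**Figure D1:**
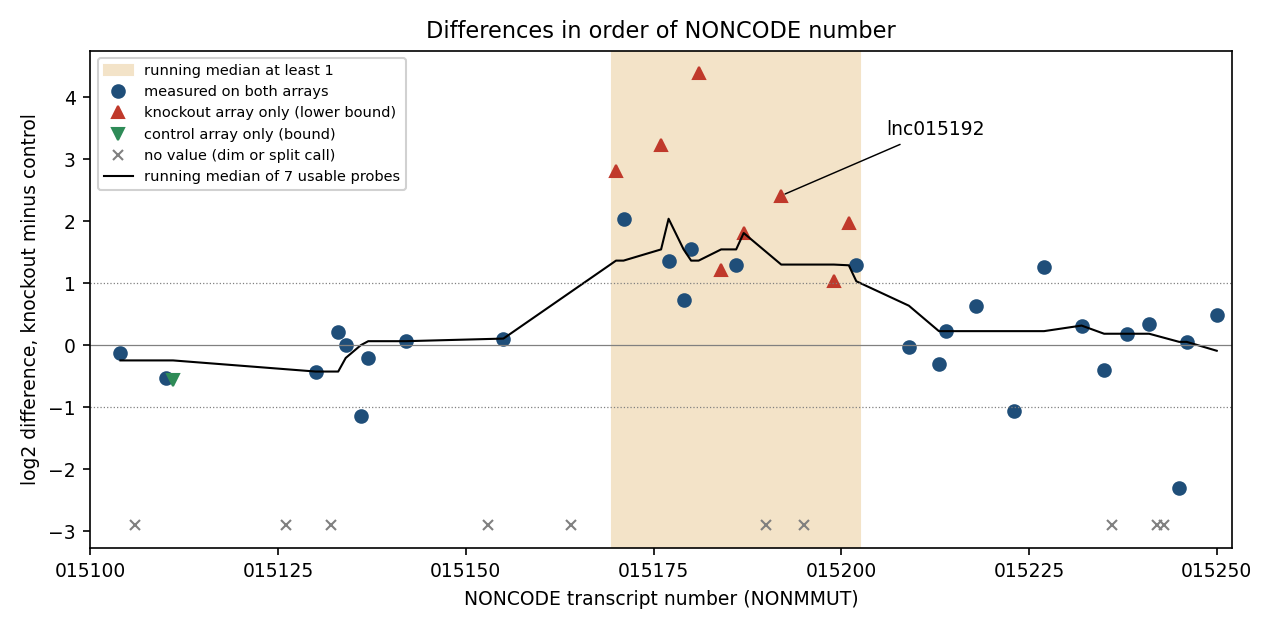
Each point is a probe, at its NONCODE number (horizontal axis) and its log2 difference, knockout minus control (vertical axis). Circles are measured on both arrays, triangles are bounds, crosses at the bottom mark probes with no value, and NONMMUT015231 is not drawn. The 14 usable probes of the shaded stretch all lie above 0, and the running median (line) steps up before NONMMUT015170 and falls below 1 after NONMMUT015202.

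Under the processing used here, the differences of single probes stepped up at the start of the stretch and down at its end. Steps there follow in large part from how the stretch was drawn. NONMMUT015142 and NONMMUT015155, the usable probes next before it, were at 0.07 and 0.11, and NONMMUT015137 before them at -0.20. NONMMUT015164, between NONMMUT015155 and the start, was not well above background on either array. The first probe of the stretch, NONMMUT015170, then stood at a bound of 2.82. At the other end NONMMUT015202 was at 1.29, and the probes after it, NONMMUT015209, NONMMUT015213 and NONMMUT015214, were at -0.02, -0.29 and 0.23. The running median fell more slowly there, from 1.03 at NONMMUT015202 to 0.64 at NONMMUT015209 and 0.23 at NONMMUT015213. Some processing moved the ends. With no background correction the stretch ended at lnc015192 itself, with 11 probes from NONMMUT015170. With quantile or loess scaling, or the 5th percentile as bound, it ended at NONMMUT015201 with 13 probes. With no filter on dim probes it ran from NONMMUT015164 to NONMMUT015201 with 16 probes. The width of the running median hardly moved these ends. With 5 probes they were the same, and with 11 or 15 probes they shifted by 1 usable probe at each end, to NONMMUT015171 and NONMMUT015209. When a single probe at or below 0 ended the stretch, it ran from NONMMUT015142 to NONMMUT015202 with 16 probes. When a window only had to be above the median of all NONCODE probes, the stretch reached from NONMMUT015155 to NONMMUT015241 with 25 probes. With all probes seen on only 1 array left out, whichever array it was, the stretch shrank to 4 probes, NONMMUT015177 to NONMMUT015186.

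Within the stretch 8 probes, lnc015192 among them, were well above background in both knockout spots and in neither control spot. NONMMUT015181 had the largest bound, 4.39, or at least 20.9-fold. Its knockout spots gave 254 and 190.5 and its control spots 2.97 and 6.67. NONMMUT015176 followed with a bound of 3.23, from 96.9 and 101 in the knockout against 12.2 and 3.33 in the control. NONMMUT015170 came next at 2.82, from 64.0 and 85.9 against 3.09 and 2.88. lnc015192 had rank 4 by bound among the 14. These 4 probes were at least 5-fold higher by their bounds.

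The other 4 probes seen on the knockout array only were dimmer. NONMMUT015201 had a bound of 1.98, from 43.9 and 39.1 in the knockout against 3.03 and 3.14 in the control. NONMMUT015187 had a bound of 1.81, from 31.2 and 43.7 against 3.60 and 2.97. NONMMUT015184 had a bound of 1.22, from 23.1 and 26.0 against 3.33 and 3.34. The bounds of these dim probes were small because a signal near the detection limit leaves little room above it. NONMMUT015199, with 21.0 and 22.1 in the knockout, had control signals of 12.8 and 9.82, and its bound was 1.03. It was the faintest of the 14 in the knockout, and of the 8 the one whose control spots lay nearest to its knockout spots. When the 5th percentile of detected probes set the bound, NONMMUT015184 and NONMMUT015199 were under 2-fold, at 0.49 and 0.30. Over all 8 probes the 16 control spots ran from 2.88 to 12.8 with a median of 3.26, and the 16 knockout spots from 21.0 to 254 with a median of 48.9. That the knockout spots lie higher follows from how these 8 were picked.

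**Figure D2:**
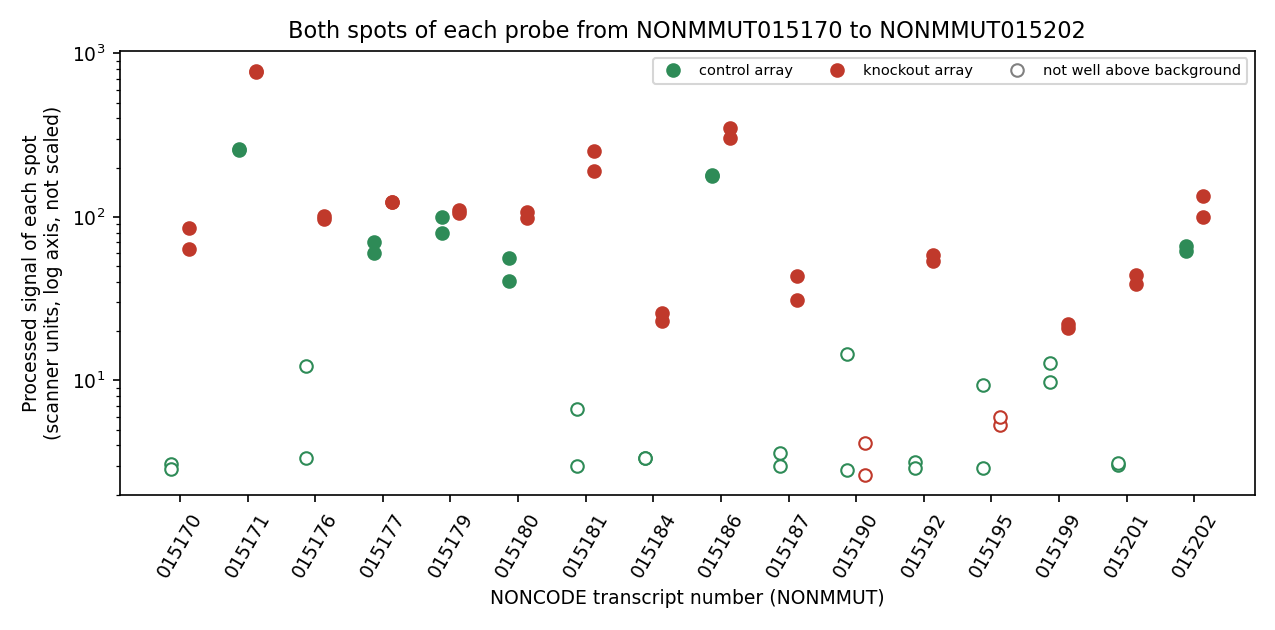
Processed signal in scanner units (vertical log axis, not scaled between arrays) of both spots of every probe from NONMMUT015170 to NONMMUT015202, with the control in green and the knockout in red. Open circles are spots not well above background. All filled control circles belong to 6 probes, and lnc015192 shows 2 open control circles near 3 under 2 filled knockout circles at 58.5 and 53.8.

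The remaining 6 probes of the stretch were measured on both arrays, so their differences are values and not bounds. NONMMUT015171 was the brightest, with knockout spots of 781 and 774 against control spots of 259.8 and 255, and its difference was 2.04 (4.12-fold). NONMMUT015180 was higher by 1.55, from 107 and 98.4 against 56.0 and 40.7. NONMMUT015177 was higher by 1.37, from 123 in both knockout spots against 70.5 and 59.9. In these 3 probes the 2 spots of an array lay closer to each other than to the spots of the other array.

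NONMMUT015186 was higher by 1.30, from 349.7 and 303 against 181 and 179. NONMMUT015202 was higher by 1.29, from 99.6 and 134 against 62.2 and 66.4. NONMMUT015179 was the member of the stretch under 2-fold, at 0.73 (1.65-fold). Its raw signals were 109 and 106 in the knockout against 99.4 and 79.5 in the control. Much of its difference thus comes from the scaling, which adds 0.45 to the difference of every probe. With the E1A spike-in RNAs set equal on both arrays, NONMMUT015186 and NONMMUT015202 were under 2-fold too, at 0.95 and 0.94. NONMMUT015171, NONMMUT015180 and NONMMUT015177 stayed above it, at 1.69, 1.19 and 1.01. Under the processing used here, the median over these 6 probes was 1.34 (2.52-fold), against 0.11 over all NONCODE probes measured on both arrays. At least 2-fold higher were 5 of the 6, against 4.11% of those NONCODE probes. The 6 lie in a stretch that was drawn on these same differences. Of the 12 spot pairs 10 were at least 2-fold higher, and the smallest spot difference was 0.59. The spot differences of a probe had an SD of at most 0.24 in these 6, which covers printing and scanning only.

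2 probes of the stretch had no value. NONMMUT015190 gave 2.85 and 14.4 in the control and 2.64 and 4.14 in the knockout. NONMMUT015195 gave 2.91 and 9.43 in the control and 5.31 and 6.01 in the knockout. Neither was well above background in any spot, so the probes on either side of lnc015192 in number give neither a difference nor a bound. The nearest usable probes are NONMMUT015187 and NONMMUT015199.

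Before the stretch there were 15 members, of which 10 were usable, with a median of -0.16 and 4 above 0. Of the 9 measured on both arrays, 8 were within 1.5-fold either way. The other, NONMMUT015136, was lower in the knockout by 1.13, at a level of -2.28 against -1.15. NONMMUT015111 was seen on the control array only, and its bound was -0.56, so it was at least 1.47-fold lower. NONMMUT015104, the first member, was at -0.12 with levels of 0.23 in the knockout and 0.35 in the control. NONMMUT015134 showed the smallest difference of the 37, 0.0029. NONMMUT015094, the usable probe next below the range, was at -0.24. None of the 10 usable members was higher by 2-fold, and none was seen on the knockout array only. Among usable NONCODE probes the shares were 4.59% and 1.95%.

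After the stretch there were 17 members, NONMMUT015231 included, of which 13 were usable, with a median of 0.19 and 8 above 0. NONMMUT015227 was the 1 member at least 2-fold higher outside the stretch, at 1.27, with levels of 0.06 in the knockout and -1.21 in the control. Its neighbour NONMMUT015223 was lower by 1.05, at -3.65 against -2.60. NONMMUT015245 showed the largest difference outside the stretch and was lower by 2.31 in the knockout (4.94-fold), at -1.57 against 0.73. Higher and lower members thus both occurred there. NONMMUT015218 was at 0.64, NONMMUT015246 at 0.06, and the last member, NONMMUT015250, at 0.48. NONMMUT015255, the usable probe next above the range, was at -0.60. The outlier spots of NONMMUT015231 read 1130.5 and 1459 in the knockout against 953 and 873 in the control, and no value was drawn from them.

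The numbers on either side of the range gave further context. Of 22 probes in the 50 numbers below it, 15 were usable, with a median of -0.03 and a range from -0.41 to 1.17. At least 2-fold higher was 1 of the 15, against 4.59% of usable NONCODE probes. In the 50 numbers above it there were 3 probes, of which the 2 usable ones were at -0.60 and -0.26. No probe in either flank was seen on the knockout array only. Among usable NONCODE probes 1.95% were, so none is near that share for so few probes. In the stretch 8 of the 14 usable probes were, but the stretch was picked for its high values.

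The stretch was then set beside the whole NONCODE numbering. Of 20548 windows of 7 usable probes, 145 had a running median at least 2-fold higher in the knockout, and they formed 36 stretches. The one around lnc015192 was the longest, with 14 windows, and the next had 8. In the other direction 40 windows were at least 2-fold lower, in 11 stretches of which the longest had 9 windows. Without a running median, the longest unbroken run of single probes at least 2-fold higher ran from NONMMUT015180 to NONMMUT015202 and had 9 probes. The next such run had 6, and the longest run of probes at least 2-fold lower had 4. The highest running median in the stretch was 2.04, against 2.28 for the highest of all windows, so its height was not the largest. In windows of 14 usable probes, the most that were seen on the knockout array only was 8, and the 2 windows with that count both lay here. This range was chosen for its values, so its rank along the numbering is a description.

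**Figure D3:**
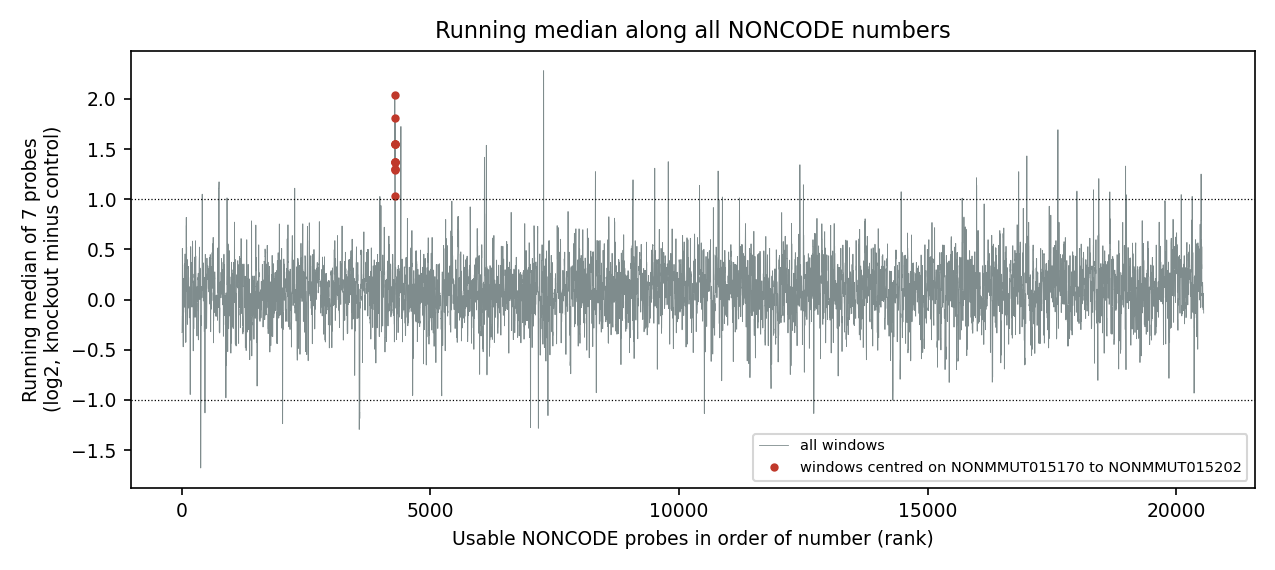
Running median of the log2 difference (knockout minus control) over 7 usable NONCODE probes, for all 20548 windows in order of number (rank on the horizontal axis). Dotted lines mark 2-fold either way, and the 14 windows of the stretch around lnc015192 (red) lie between 1.03 and 2.04.

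Values of the array surface that could move with the signal were compared. The spots of the 14 usable probes lay between rows 5 and 1032 of the 1064 rows and between columns 1 and 169 of the 170 columns. A spot of NONMMUT015176 and a spot of NONMMUT015177 were next to each other, in row 832 and columns 2 and 1. The local background of all spots of the 14 probes had a median of 20 (control) and 20.5 (knockout). For the members outside the stretch it was 21 on both. All 28 spot pairs of the stretch were higher in the knockout after scaling. For the 16 pairs of probes seen on the knockout array only, this follows from how they were picked. The other pairs belong to probes of a stretch that was drawn on these same differences. Whether the 14 probes read 14 RNAs, or several parts or isoforms of fewer, is not known from their numbers.

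Under the processing used here and 16 alternatives, all 14 probes of the stretch were above 0 each time. This gives no separate support for the direction. The 14 were picked for high differences, and a bound, as for 8 of them, cannot fall below 0 by its rule. The count at least 2-fold higher moved from 13 down to 9 with the E1A spike-in RNAs set equal on both arrays, and down to 7 with normexp. Setting the spike-ins equal moved every difference by -0.36. The median of all usable NONCODE probes was then -0.26 and that of the stretch 1.32, which is 1.58 above it, the same distance as in the processing used here. With normexp the NONCODE median was 0.15 and that of the stretch 0.99, a distance of 0.84. lnc015192, NONMMUT015170, NONMMUT015171, NONMMUT015176, NONMMUT015181, NONMMUT015187 and NONMMUT015201 were at least 2-fold higher in all 17. NONMMUT015179 was in none. With the spike-ins equal or with normexp the running median at lnc015192 was 0.95 and 0.91, just under the limit of 1, so by that limit no stretch was centred on it.

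**Figure D4:**
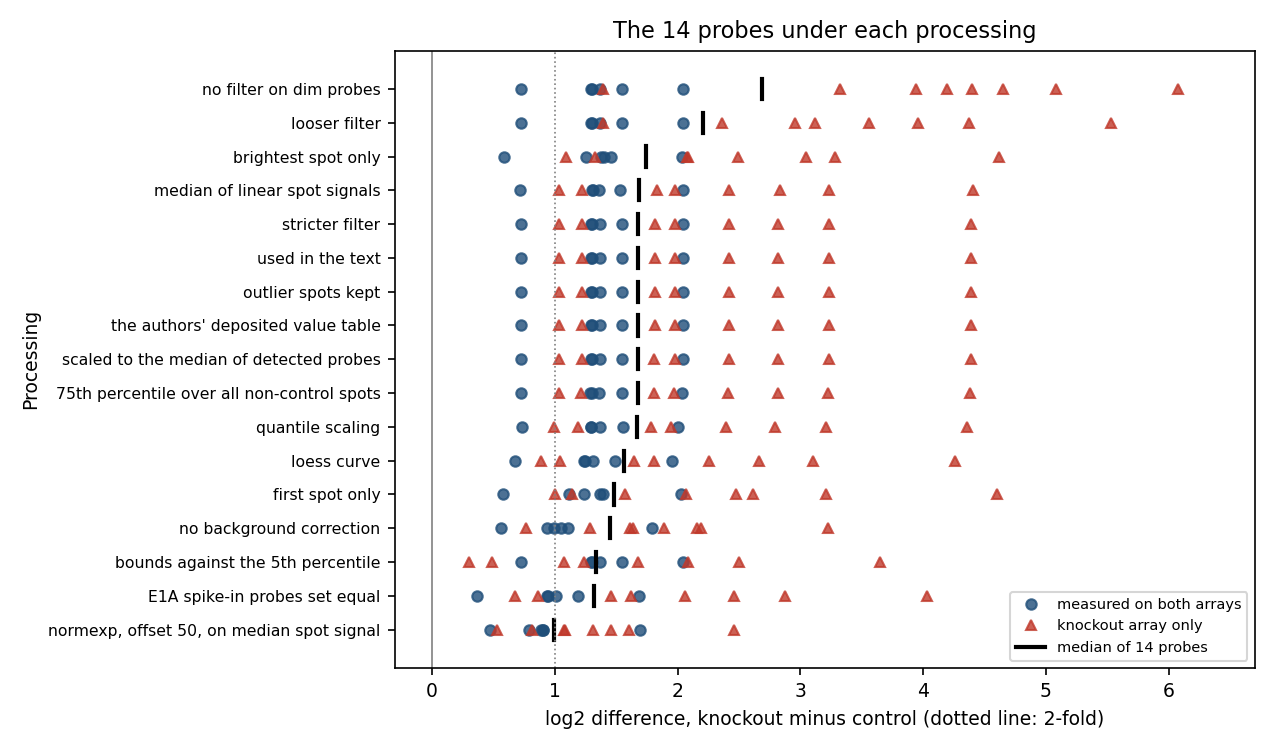
Log2 differences (knockout minus control, horizontal axis) of the 14 usable probes from NONMMUT015170 to NONMMUT015202 under each of 17 ways of processing (vertical axis), with circles for probes measured on both arrays, triangles for probes seen on the knockout array only and a bar at the median. All points lie to the right of 0, and the median runs from 0.99 with normexp to 2.68 when dim signals are used as read.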

How the data were processed

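Total RNA was labelled with Cy3 and hybridised to 1 Agilent array per genotype, per the labels' protocols. The deposited intensity values are scanner output of Agilent Feature Extraction, for which the file headers give version 11.5.1.1 and the submitters' processing notes 10.7. They are background-subtracted per spot, and not scaled between arrays. The well above background and outlier marks are that software's own, per the file headers. The authors' deposited table holds log2 values, with column medians of -1.94 and -1.95. Its differences for the 47 members with usable spots on both arrays differed from those computed here by -0.00015 (log2) throughout, so scale and centring are known.

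Spots with an outlier mark were dropped. Log2 processed signals were averaged over the spots of a probe, and the array's 75th percentile over 97373 probes was subtracted (8.36 control, 7.92 knockout). Detection on an array required every usable spot of the probe to be well above background. For a probe detected on 1 array, the difference is a bound, its level minus the higher of the dim level and the lowest detected level on the other array. Calls were by size, 2-fold, with no test. Of 10 E1A spike-in probes 9 were used.

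The members, the named probes and the alternatives were chosen with earlier results of these data known. Named are lnc015192, all probes of the stretch, the 3 usable ones on each side, the 4 largest differences outside it, the 4 smallest, and the ends of the range. Others outside the stretch were named after their values were seen. Normexp (offset 50) used limma 3.58.1 in R 4.3.3. Other steps used python 3.11.15, numpy 2.4.6, pandas 2.3.3 and statsmodels 0.14.6. The stretch rule was run on simulated data with a planted rise of equal size in all its probes. That run checks only that the rule finds such a rise, and not the ends found here.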

Additional observations from a re-analysis of the deposited data

How the results depend on the processing

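The bound of lnc015192 (2.42) was 2.26 with a loess curve, 2.06 with the spike-ins equal, 1.31 with normexp, 1.89 with no background correction, 3.56 with a looser filter and 1.68 with the 5th percentile as bound, an alternative added after the data were seen. It was 4.65 with no filter on dim probes, where it is no bound. The 14 members at least 2-fold higher were 9 with the spike-ins equal, 7 with normexp and 5 at 4-fold. The 3 lower members were 1 with normexp, 1 with no background correction, 6 with no filter and 1 at 4-fold. The median over members (0.32) changed sign with the spike-ins equal, to -0.037, within a shift of -0.36 for all probes. The stretch of 14 probes could not be placed around lnc015192 (0 probes) with the spike-ins equal or with normexp. It held 25 probes with the NONCODE median as limit and 4 with probes seen on 1 array left out. It ended at lnc015192 with no background correction (11 probes) and ran from NONMMUT015164 to NONMMUT015201 with no filter (16 probes). The causes were not tested, except that the spike-ins shift all probes alike and that leaving out probes removes members. No paired analysis was possible because each genotype has 1 array, and no replicate could be left out. Depth here is signal over background: 8 of the 14 probes in the stretch rest on a control level that is only a bound.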
